A study of Mus musculus with 2 samples.

Results

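The IL-12 family was followed through its 7 genes Il27, Ebi3, Il12a, Il12b, Il23a, Il12rb1 and Il12rb2, which encode cytokine subunits and receptor chains. They are 7 of the 19935 genes that had a probe set of their own on the array. Each had 1 probe set, and none of them had a probe set shared with another gene. The material was splenic dendritic cells (DCs), antigen-presenting white blood cells, sorted by flow cytometry from wild type C57BL/6 mice at 8 weeks of age. The vehicle group, also labelled as cultured with medium, and the IL-27 group held 1 array each. The labels give the culture time as "ON" and do not give the number of mice or cultures behind either array. With 1 array per group no difference below has a replicate check, and no p-value or SD is given.

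Cytokines of this family are pairs of chains. IL-12 joins p35 (Il12a) to p40 (Il12b), IL-23 joins p19 (Il23a) to the same p40, IL-27 joins p28 (Il27) to EBI3 (Ebi3), and EBI3 with p35 has been described as IL-35. A cell secretes the complete cytokine only where both chains are made, and activated DCs are a main source of IL-12, IL-23 and IL-27. IL-12 is sensed by IL-12Rβ1 (Il12rb1) together with IL-12Rβ2 (Il12rb2), and IL-23 by IL-12Rβ1 with the IL-23 receptor. These receptors are best known on T cells and natural killer (NK) cells. The transcripts measured here are those of the cultured cells, whereas the IL-27 they received was added from outside.

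Promoter sequences from RefSeq (GRCm38.p6) were found for 4 of the 7 genes, at 5 start sites. The 250 bases before the start are shown for the 3 genes of the family that had a lower value on the IL-27 array. Capitals mark matches to the NF-kB consensus, bound by the factors that activate many cytokine genes, and to the GAS core bound by STAT factors.
Ebi3, chr17:55952373-55952622, plus strand: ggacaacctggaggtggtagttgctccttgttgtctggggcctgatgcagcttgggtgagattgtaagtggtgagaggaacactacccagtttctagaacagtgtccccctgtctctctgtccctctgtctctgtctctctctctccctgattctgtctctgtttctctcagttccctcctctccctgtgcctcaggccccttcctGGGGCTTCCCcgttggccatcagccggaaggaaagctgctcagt
Il12rb2, chr6:67376189-67376438, minus strand: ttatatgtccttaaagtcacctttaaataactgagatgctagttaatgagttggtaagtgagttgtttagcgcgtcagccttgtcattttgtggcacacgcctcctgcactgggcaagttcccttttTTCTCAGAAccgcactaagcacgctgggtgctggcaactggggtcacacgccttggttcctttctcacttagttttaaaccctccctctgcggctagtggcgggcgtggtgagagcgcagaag
Il12b, chr11:44399813-44400062, plus strand: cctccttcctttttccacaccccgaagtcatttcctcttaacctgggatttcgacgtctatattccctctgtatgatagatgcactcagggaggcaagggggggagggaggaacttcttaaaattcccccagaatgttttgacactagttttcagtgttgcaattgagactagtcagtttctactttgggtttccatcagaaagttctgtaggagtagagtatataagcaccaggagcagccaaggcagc
Both strands were searched for the NF-kB consensus, the GAS core (TTCNNNGAA), the interferon-stimulated response element core (GAAANNGAA), the AP-1 site (TGANTCA) and the TATA box (TATAAA). Ebi3 held an NF-kB match, GGGGCTTCCC, that begins 44 bases before the start. Il12rb2 held a GAS match, TTCTCAGAA, that begins 123 bases before it. A further NF-kB match of Il12rb2, GGGACTTCCC, begins 1 base before the start and runs past it, and Ebi3 has another, GGGGCCCTCC, after its start. The windows before the start of Il12b and of Il12a held no exact match to these motifs, and no match overlapped another. Looser matches were not searched for, so sites that depart from these letters may be present. Of 32851 such windows, 7.25% held the NF-kB consensus, 7.02% the GAS core, 7.13% the interferon element, 6.75% the AP-1 site and 12.4% the TATA box. A match is a description of these letters and not a measured binding site.

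Values are deposited probe set intensities on a linear scale, and differences are log2 of the IL-27 array minus log2 of the vehicle array. A difference of 1 or more in either direction (2-fold) counted as higher or lower where the brighter value reached 96.2, the median over all probe sets of both arrays. Of the 11140 genes at that level, 13.2% were lower and 1.52% higher. Olfactory receptor genes, which DCs are not expected to use, served as background. Their 95th percentile, over 1027 genes, is called the olfactory limit and stood at 77.3 with vehicle and 129 with IL-27. The difference also depended on level, so each gene was set beside the 1000 genes nearest to it in mean level.

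None of the 7 genes was higher or lower by the 2-fold rule, and 5 of them were over the level minimum. Their differences ran from -0.89 for Ebi3 to 0.64 for Il12rb1. The median over all 7 was 0.12 and over the 5 bright enough -0.29, beside 0.042 over all genes and -0.34 over the genes above the minimum. At 1.5-fold, Ebi3 and Il12rb2 were lower and Il12rb1 was higher, where 33.7% of genes were lower and 5.86% higher. In all, 4 genes had a difference above 0 and 3 below.

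**Figure D1:**
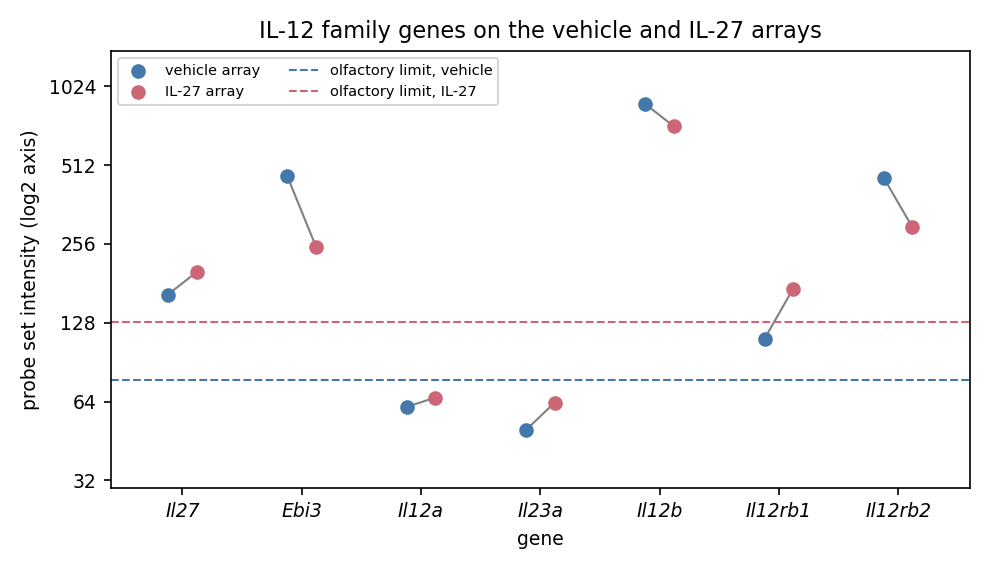
Probe set intensity (log2 axis) of each IL-12 family gene with vehicle (blue) and with IL-27 (red), with the olfactory limit of each array as a dashed line of the same colour; each point is 1 array. Il12a and Il23a lie under the limit of their array on both arrays, Ebi3 goes from 465 to 250, and Il12rb1 goes from 111 to 173.

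The chains of IL-27 itself had differences of opposite sign. Ebi3 (probe set 10445977), the soluble receptor-like chain, read 465 with vehicle and 250 with IL-27. The value is 1.86-fold lower with IL-27 (-0.89), short of the 2-fold rule, and both values lay above the limit of their array. They were 6.02 times the olfactory limit with vehicle and 1.93 times with IL-27. Genes of the same level had a median difference of -0.53, and 26.1% of them differed by at least as much as Ebi3 in either direction. The Ebi3 value was thus within the common range for its level, with 24.8% of the matched genes below it. Removing the level trend brought the difference to -0.45.

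Il27 (probe set 10567987), which encodes the helical p28 chain found only in IL-27, had 164 with vehicle and 200 with IL-27. The difference of 0.28 is a 1.22-fold higher value. Among the 1027 olfactory genes, 2 were at least as bright with vehicle and 5 with IL-27. The Il27 values were 2.13 times the olfactory limit with vehicle and 1.54 times with IL-27. The ratio to the limit was thus lower with IL-27, where the limit itself stood at 129 against 77.3 with vehicle. The difference of Il27 was 0.52 with quantile normalization and 0.59 with the level trend removed. Genes of this level had a median difference of -0.47, and 91.0% of the matched genes had a lower difference than Il27. In either direction, 71.6% of them differed by at least as much as Il27. In rank, Il27 was brighter than 63.0% of all genes with vehicle and than 75.6% with IL-27, while Ebi3 went from 84.9% to 80.4%. The difference of Il27 exceeded that of Ebi3 by 1.18, and by 1.09 with quantile normalization and 1.04 with the level trend removed. The chains of this cytokine thus differed unequally under each of these scalings.

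Of the chains of IL-12 and IL-23, only the shared one had signal above the olfactory limit. Il12b (probe set 10375331), encoding p40, had 877 with vehicle and 720 with IL-27, above every olfactory gene on both arrays. Its difference of -0.29 was close to the -0.37 of genes at its level, and 67.4% of them differed by at least as much. Il12b was brighter than 94.0% of all genes with vehicle and than 94.5% with IL-27. Its rank therefore hardly moved, and its difference became 0.037 with the level trend removed.

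Il12a (probe set 10492540), the p35 chain that makes p40 into IL-12, had 61.1 and 66.3. Both values lay under the olfactory limit, and 14.6% of the olfactory genes with vehicle and 40.3% with IL-27 were at least as bright. Il23a (probe set 10373358), the p19 chain of IL-23, had 49.8 and 63.4, where 28.5% and 43.7% of the olfactory genes were at least as bright. Neither gene could be told from genes not expected in DCs, so their differences of 0.12 and 0.35 carry no fold. The olfactory genes themselves had a median of 40.5 with vehicle and 59.0 with IL-27. The genes nearest in level to Il12a and to Il23a had a median difference of 0.23 each.

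The receptor chains also had differences of opposite sign. Il12rb1 (probe set 10572497), the chain shared by the IL-12 and IL-23 receptors, had 111 with vehicle and 173 with IL-27, a 1.55-fold higher value (0.64). Genes at its level had a median of -0.22, 95.7% of them had a lower difference, and 29.2% differed by at least as much in either direction. It was brighter than 53.7% of all genes with vehicle and than 71.7% with IL-27, the widest move in rank among the 7. Its values were 1.44 times the olfactory limit with vehicle and 1.34 times with IL-27. The ratio was thus slightly lower with IL-27, where the limit itself was higher.

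Il12rb2 (probe set 10545135), the signalling chain that engages STAT4, had 457 with vehicle and 296 with IL-27, a 1.54-fold lower value (-0.63). Genes at its level had a median of -0.55, and 46.2% differed by at least as much. Its rank was nearly level, brighter than 84.5% of genes with vehicle and than 83.8% with IL-27, and its difference was -0.19 once the level trend was removed. The difference of Il12rb1 exceeded that of Il12rb2 by 1.26, and by 1.04 with quantile normalization and 0.95 with the level trend removed.

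**Figure D2:**
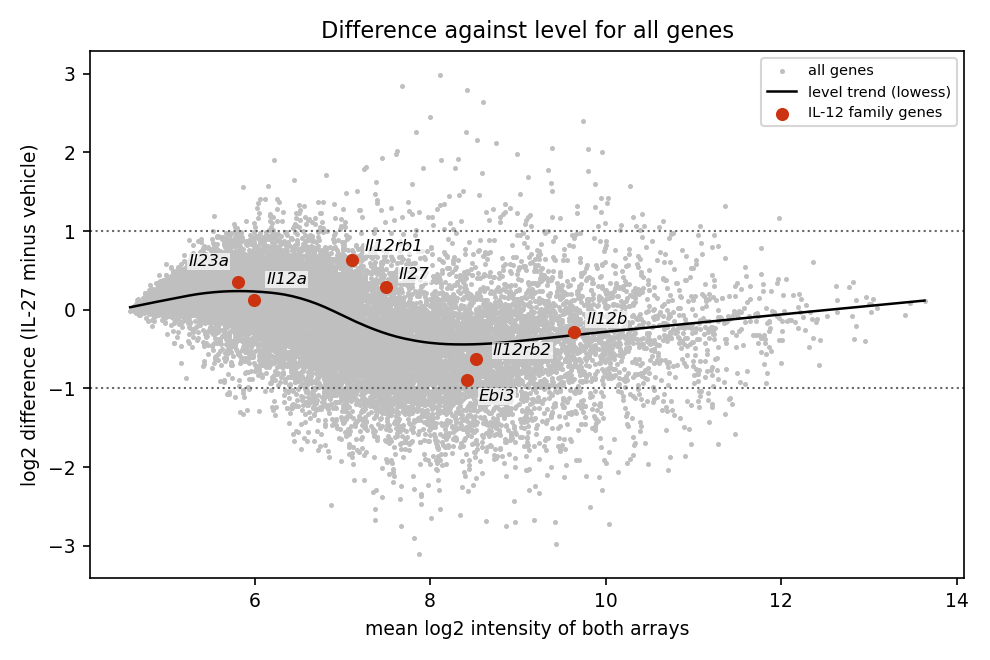
Log2 difference (IL-27 minus vehicle) against mean log2 intensity for all 19935 genes (grey), with the level trend (black line), the 2-fold lines (dotted) and the IL-12 family genes (red). Il12rb1 and Il27 lie above the trend, Ebi3 and Il12rb2 below it, and Il12b, Il12a and Il23a near it.

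Genes with nearly the same pair of values were taken as those nearest in log2 intensity over the 2 arrays. They were Pou2af1 and Klhl21 for Il27, Ccz1 and Parl for Ebi3, Psma6 and Abce1 for Il12b, Krtap10-4 and Gpr55 for Il12rb1, and Tspyl2 and Strn4 for Il12rb2. Their distances from the family gene were 0.0057 to 0.049 on the log2 scale. With 2 arrays many genes share such a pair of values.

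**Figure D3:**
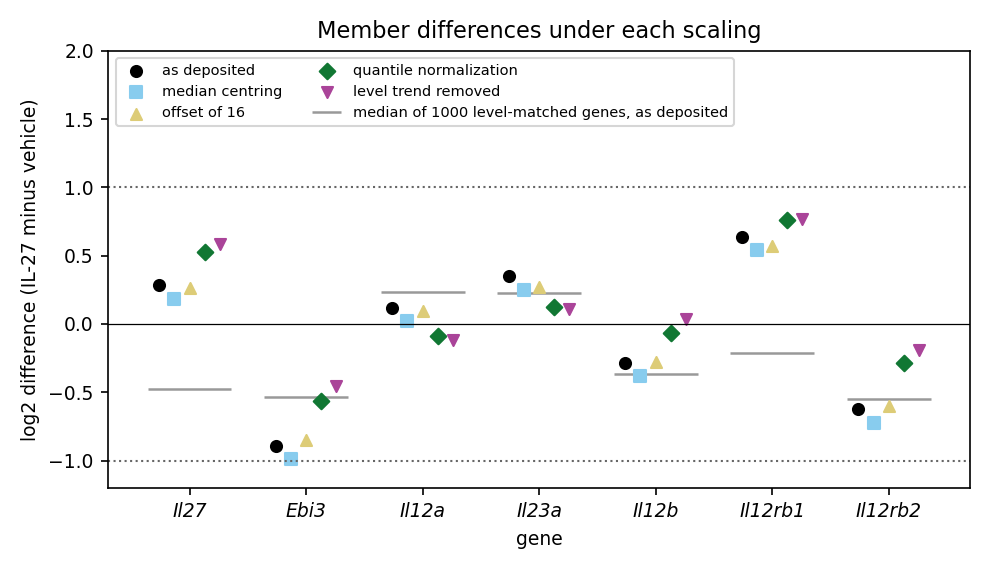
Log2 difference (IL-27 minus vehicle) of each IL-12 family gene as deposited and under 4 other scalings (symbols), with the median of 1000 level-matched genes as deposited (grey bar) and the 2-fold lines (dotted). Il27 and Il12rb1 lie above 0 and Ebi3 and Il12rb2 below 0 in every scaling plotted, whereas Il12a and Il12b cross 0.

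Partner receptor chains of the family, and the kinases and STAT factors behind them, were mostly within 2-fold. The list of chains also held Il10ra and Il6ra, receptor chains for IL-10 and IL-6. None of the 4 listed chains over the level minimum, of 5 measured, was higher or lower. Il27ra, which pairs with gp130 to bind IL-27, had 152 with vehicle and 125 with IL-27, under the olfactory limit there. Il6st, which encodes gp130, had 1414 and 1205. Il23r, the partner of IL-12Rβ1 in the IL-23 receptor, had 39.7 and 66.2 and lay under the limit on both arrays. Among the 4 over the level minimum, the largest differences were those of Il10ra (-0.86) and Il6ra (-0.59).

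Of 9 kinases and STAT factors, 1 was higher, 1 was lower and 7 were neither, beside 1.52% higher and 13.2% lower over all genes above the minimum. Stat4, the main STAT of the IL-12 receptor, had 496 with vehicle and 1994 with IL-27, a 4.02-fold higher value. Tyk2, the kinase bound to IL-12Rβ1, had 577 and 268 and was 2.16-fold lower (-1.11), or -0.68 with the level trend removed. Jak2, the kinase bound to IL-12Rβ2, had 1459 and 1278, and Stat3 had 1192 and 1596. Stat5a differed by 0.67 as deposited and by 1.02 with the level trend removed, and Stat5b by -0.47. Stat4 thus differed far more than either receptor chain it serves.

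Transcription factors that act on IL-12 family genes had a median difference of -0.28, beside -0.34 for all genes above the minimum. Of 23 measured, 5 were lower and none was higher, where 13.2% of all genes above the minimum were lower and 1.52% higher. Maf, which represses Il12b in myeloid cells, had 1155 with vehicle and 213 with IL-27, 5.41-fold lower. Fos and Jun, which form AP-1, were 4.89-fold and 2.19-fold lower. Irf7, an interferon regulatory factor, was 2.67-fold lower. Nfkbiz, an NF-kB cofactor named after its value was seen, was 2.18-fold lower, or -0.77 with the level trend removed. Among others named after their values were seen, Rel, the NF-kB subunit known for Il12b, had 3528 and 4456, and Irf8 and Batf3, factors of type 1 DCs, differed by -0.67 and -0.77.

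Of 16 genes for signals that switch on the family, 4 were lower and none was higher. All genes above the minimum had 13.2% lower and 1.52% higher. The list median was -0.45, beside -0.34 for all genes above the minimum, and -0.12 with the level trend removed. Tlr3, a sensor of double-stranded RNA, was at least 4.98-fold lower against the olfactory limit, and Tlr7, a sensor of single-stranded RNA, 4.31-fold. Tlr4, the endotoxin receptor, was at least 1.69-fold lower, which leaves its size short of 2-fold against the limit. Mapk14, the stress kinase p38α, was 2.29-fold lower, or -0.88 with the level trend removed. Tlr9, the sensor of CpG DNA, was named after its value was seen and differed by -0.08.

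Among 12 other cytokines measured, 7 were over the level minimum, of which 2 were lower and none was higher. The shares over all genes above the minimum were 13.2% lower and 1.52% higher. Il18, which acts with IL-12 on NK cells, had 547 with vehicle and 133 with IL-27, 4.12-fold lower. Il15 was at least 1.88-fold lower against the limit. Il1b differed by -0.75, and Tnf by 0.75 as deposited and 1.12 with the level trend removed. Il6, whose chain resembles p28 and p35 and which was named after its values were seen, had 50.9 and 66.4, under the limit on both arrays. Of 13 other cytokine receptor chains over the minimum, 2 were higher and 2 lower. Il7r was 3.50-fold and Csf2rb, the common chain of the GM-CSF receptor, 2.50-fold higher. Csf1r was 2.36-fold lower and Csf3r at least 2.12-fold.

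**Figure D4:**
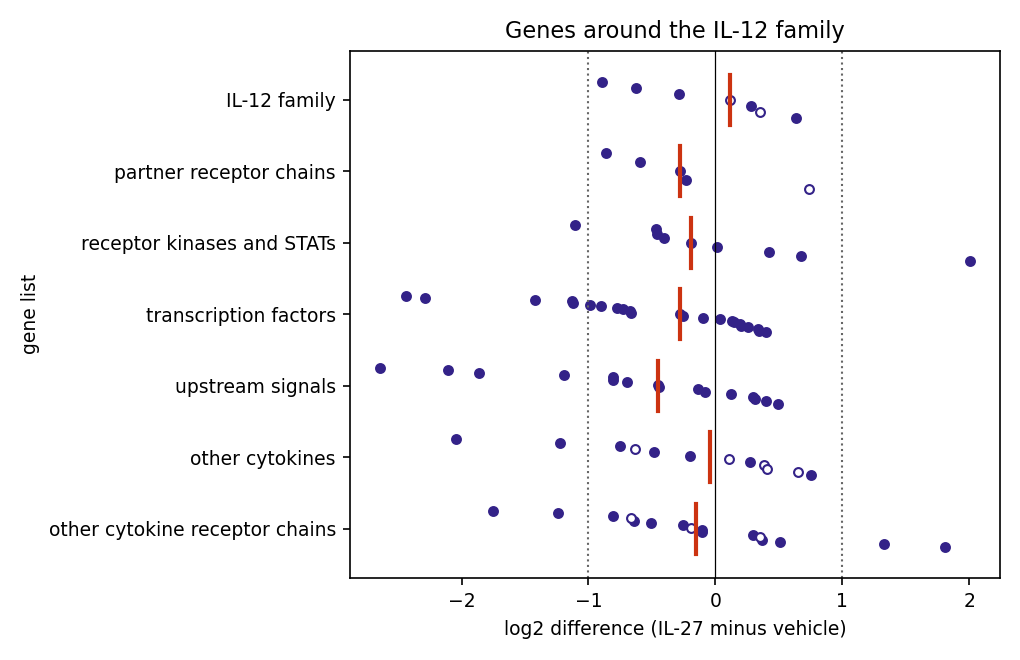
Log2 difference (IL-27 minus vehicle, horizontal axis) of every measured gene in 7 gene lists around the IL-12 family; filled points are over the level minimum, open points are not, red bars are list medians and dotted lines mark 2-fold. All IL-12 family genes lie inside the 2-fold lines, and Stat4 (2.01), Il7r (1.81) and Csf2rb (1.32) lie to the right of them.

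Cell type markers were set beside these values. Over all genes above the level minimum, 13.2% were lower and 1.52% higher. The DC markers Itgax (3371 with vehicle, 1829 with IL-27) and Zbtb46 (344 and 340) were above the limit on both arrays. Of the 9 pan-DC markers they belong to, Flt3 (-1.08), Dpp4 (-1.09), Kmo (-2.30) and Bcl11a (-2.23) were lower and none was higher, with a median of -0.88. With the level trend removed, Flt3 (-0.83) and Dpp4 (-0.84) fell short of 2-fold, and 2 of the 9 were lower. Among 17 markers of macrophages and monocytes, 16 of them over the level minimum, 13 were lower and none was higher. With the level trend removed 12 were lower. Their summed intensity was 38444 with vehicle and 15755 with IL-27, and Cd163, a macrophage scavenger receptor, was under the limit on the IL-27 array. Of 10 type 1 DC markers 5 were lower and of 10 type 2 DC markers 6, with medians of -1.03 and -1.45. Of 13 markers of mature DCs, which include costimulatory genes, Ccl22 was higher (2.13-fold) and 12 were neither, with a median of 0.26, and Ccr7 had 3702 and 4858. With the level trend removed 2 of the 13 were higher. Of 8 plasmacytoid DC markers, 7 of them over the level minimum, 1 was lower (Irf7), with a median of -0.59. Of 9 B cell markers 2 were lower (Ms4a1, Cd22) and 1 higher (Ighm), with a median of -0.49. Ms4a1 was at -0.67 with the level trend removed. Of 9 reference genes 1 was lower (Hprt), with a median of -0.096. The part of these markers in the values of Ebi3, Il12b and Il27 was not tested, and in bulk RNA fewer cells of a type cannot be told apart from less RNA per cell.

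T and NK cells carry the IL-12 receptor and could add to its signal. The 12 measured T cell markers summed to 1079 with vehicle and 1575 with IL-27, of which Il7r made up 167 and 583. Of these 12, 6 lay under the limit with vehicle and 10 with IL-27, and Cd3e, a chain of the T cell receptor complex, had 82.0 and 114. The 13 NK cell markers summed to 1612 and 1269, of which Klrd1 made up 555 and 269 and Klrk1 287 and 135. Of the 13, 9 had a difference above 0 and 4 below. Under the limit lay 7 with vehicle and 10 with IL-27, and Ncr1, the defining NK receptor, had 49.8 and 44.2, under it on both. Klrd1 and Klrk1 were 2.06-fold and 2.12-fold lower, though short of 2-fold with the level trend removed. The part of T and NK cells in the values of Il12rb1 and Il12rb2 was not tested.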

How the data were processed

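Total RNA of 1 vehicle and 1 IL-27 sample was labelled with biotin by an Affymetrix kit, per the labels' protocols. The deposited values are linear intensities of 28815 probe sets. The sources used here do not give their background correction, summarization or normalization, and the submitters' processing notes name the build mm8. Precision is limited by the number of arrays.

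Log2 was taken without an offset. GEO's platform annotation named 21780 probe sets with 1 gene, 1605 with several (not named), and left 5430 unnamed here. Gene IDs of 21689 matched RefSeq (GRCm38.p6), which changed 0 symbols. A gene's probe set was the one with the highest mean log2. The level trend was a lowess fit over all probe sets (span 0.3, statsmodels 0.14.6). The procedure was tested on simulated data.

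The 7 genes and the 17 gene lists were chosen with earlier results of these data known. Named genes were the 7, up to 4 per list, taken by size of difference among genes reaching the level minimum, 16 markers and pathway genes whatever their values (1 is not reported here), and the 2 genes nearest to each family gene above the limit. Alternatives were quantile normalization, median centring, trend removal, an offset of 16, the mean of probe sets, other level minimums, a 1.5-fold rule, other numbers of matched genes and other background limits.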

Additional observations from a re-analysis of the deposited data

How the results depend on the processing

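No paired analysis was possible because each group held 1 array. Only quantile normalization, median centring, trend removal and the offset could change the difference of a family gene. Each gene had 1 probe set, and rules of level or size leave a difference as it is. Under these scalings the differences of Il27, Ebi3, Il23a, Il12rb1 and Il12rb2 kept their sign. Their ranges, deposited values included, were 0.19 to 0.59, -0.99 to -0.45, 0.11 to 0.35, 0.54 to 0.77 and -0.72 to -0.19. Il12a turned to -0.092 with quantile normalization and -0.11 with the level trend removed, and Il12b to 0.037 with the trend removed. By the 1.5-fold rule 2 of the 7 genes were lower (Ebi3 at -0.89, Il12rb2 at -0.63) and 1 was higher (Il12rb1 at 0.64), and under the other alternatives none was either. The share of matched genes differing as much was 77% for Il12a and 31% for Il23a with the 300 nearest genes, and 72.1% for Il12b with the 3000 nearest. The family median turned to -0.069 with quantile normalization and -0.29 with only genes above the olfactory limit. The median of the kinases and STATs turned to 0.044 with the trend removed, and that of the other cytokine receptor chains to 0.012 with quantile normalization and 0.063 with the trend removed. The T cell median turned to -0.00013 with quantile normalization and the NK cell median to -0.00097 with only genes above the limit. Over all genes, 1468 were lower and 169 higher as deposited, 907 and 235 with quantile normalization, 737 and 267 with the trend removed, and 3753 and 653 by the 1.5-fold rule. The cause of these changes was not tested.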

Other observations

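Protein-coding genes next to the family along the chromosome, in the order of the RefSeq table, were read as well. Il23r, the neighbour of Il12rb2, differed by 0.74 with both values under the olfactory limit, and Serbp1, an RNA-binding protein gene on its other side, by -0.52. Nupr1, a stress-induced nuclear protein gene next to Il27, had 126 with vehicle and 227 with IL-27 (0.85, or 1.12 with the level trend removed), whereas Apobr on the other side differed by -0.58. Ublcp1, next to Il12b, was lower at -1.15, or -0.88 with the trend removed. Stat2 and Pan2, on either side of Il23a, differed by -0.46 and -0.62, and Mast3 and Arrdc2, beside Il12rb1, by -0.98 and -0.35. Zfp119b and Yju2, beside Ebi3, differed by -0.17 and -0.32. Zfp119b lay under the olfactory limit on both arrays, and Yju2 on the IL-27 array. The difference of Il12rb1 (0.64) was opposite in sign to those of its flanks, and that of Ebi3 (-0.89) had the same sign as those of its flanks. A negative sign was also that of the median over all genes above the level minimum (-0.34).

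Genes with the NF-kB consensus in the 250 bases before a start were read as a group, since Ebi3 holds one. Of 967 such genes that reached the level minimum, 13.4% were lower and 1.76% higher, beside 13.3% and 1.42% of all 8935 genes with a promoter entry. For the GAS core, held by Il12rb2, the 641 genes gave 13.3% and 2.34%. No test was run on these shares.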
